A study of Rattus norvegicus with 6 samples.

Results

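Cyp26b1 (ENSRNOG00000015076), Crabp2 (ENSRNOG00000022101) and Rbp4 (ENSRNOG00000015518) are 3 genes that handle vitamin A and its derivatives, out of 29039 features in the deposited count table. They were selected by name because the study listed them among the genes with the clearest lower expression after predator odor (PO). The difference between PO and control odor therefore chose them, and it is given below as a description without a test. Of the 3, only Cyp26b1 is also among the called genes that the authors deposited with the counts. All 6 animals were male Sprague Dawley rats of about 10 months that had been habituated to handling and to control odor each day. For 20 minutes, 3 rats received a clean towel in the home cage (control odor, libraries C2, C3 and C4) and 3 received a towel used as ferret bedding (PO, libraries P8, P13 and P14). RNA from bilateral micropunches of the ventromedial hypothalamus (VMH) was sequenced as 1 library per rat. A micropunch holds every cell type inside its outline, and 0 of the 10 VMH marker genes looked for could be paired with an ID in the sources used here. The tissue label was therefore not checked against its markers.

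Retinoids act as a relay. RBP4 carries retinol in blood and extracellular fluid, cells oxidize retinol to retinal and then to retinoic acid, and CRABP2 takes retinoic acid inside the cell to its nuclear receptors. CYP26B1, a cytochrome P450, hydroxylates retinoic acid and so clears it. In the rodent brain, retinoic acid is known from development, where the meninges are a source of it, and from the adult hypothalamus, where it is tied to feeding and seasonal body weight.

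The start regions of the 3 genes are shown because the genes lay lower in the same libraries. RefSeq places them on 3 different chromosomes of the GRCr8 build, which is newer than the Rnor_5.0 build used for the counts. Each run is 300 bases, 250 before and 50 after the annotated start, in the direction of transcription. The Cyp26b1 window is chr4:118616127-118616426 on the minus strand, that of Crabp2 is chr2:175714612-175714911 on the plus strand, and that of Rbp4 is chr1:245313502-245313801 on the minus strand. Capitals mark the TATA box (TATAAA), the GC box (GGGCGG) and the AP-1 motif (TGANTCA), read on both strands.
Cyp26b1: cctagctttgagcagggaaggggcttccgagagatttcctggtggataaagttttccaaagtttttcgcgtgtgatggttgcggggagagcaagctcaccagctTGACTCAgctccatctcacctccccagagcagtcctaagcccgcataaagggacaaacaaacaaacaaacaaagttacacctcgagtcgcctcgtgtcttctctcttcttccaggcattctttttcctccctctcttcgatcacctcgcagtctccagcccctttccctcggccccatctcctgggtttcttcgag
Crabp2: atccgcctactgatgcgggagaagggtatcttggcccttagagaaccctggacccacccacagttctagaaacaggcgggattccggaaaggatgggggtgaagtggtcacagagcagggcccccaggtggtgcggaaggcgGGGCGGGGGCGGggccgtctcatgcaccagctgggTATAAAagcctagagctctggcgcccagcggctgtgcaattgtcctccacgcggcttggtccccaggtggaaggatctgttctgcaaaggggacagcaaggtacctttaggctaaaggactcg
Rbp4: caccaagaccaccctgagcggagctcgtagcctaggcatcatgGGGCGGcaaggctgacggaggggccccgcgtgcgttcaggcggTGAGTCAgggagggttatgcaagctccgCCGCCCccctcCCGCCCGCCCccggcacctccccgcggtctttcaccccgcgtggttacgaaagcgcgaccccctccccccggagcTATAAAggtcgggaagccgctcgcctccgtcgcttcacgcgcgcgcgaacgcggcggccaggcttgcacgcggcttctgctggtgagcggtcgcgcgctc

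The windows had little in common in these letters. Crabp2 and Rbp4 each held 1 match to the TATA box letters, beginning at -73 and -50 from the annotated start, and Cyp26b1 held 0. These letters were present, at any position, in 14.2% of all 33469 RefSeq promoter windows of this length. The GC box, present in 33.1% of windows, occurred 2 times in Crabp2, 4 times in Rbp4 and 0 times in Cyp26b1. In Rbp4, 2 of these GC boxes overlap each other. Cyp26b1 and Rbp4 each held 1 AP-1 motif, present in 7.33% of windows, and Crabp2 held 0. AGGTCA, 1 form of the core that retinoic acid receptors bind, stood in 0 of the 3 windows and in 16.2% of all windows. Only these exact letters were searched for, and other forms of the core were not. Its paired forms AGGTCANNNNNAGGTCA and AGGTCANNAGGTCA were in 0 of the 3 and in 0.00896% and 0.012% of all windows. The GC content was 52.7% in Cyp26b1, 61.0% in Crabp2 and 71.7% in Rbp4, against a median of 51.7%. A match in these letters is a description of the window and not evidence of binding.

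Library totals in the deposited counts lay between 15835375 and 20316213. Levels are given as counts, as CPM, which are counts scaled to a common library size with TMM factors, and as the FPKM that the authors computed per gene length. Of all features, 16685 had enough counts to be tested across the 2 groups. With edgeR's quasi-likelihood test, 59 of them (0.354%) had an adjusted p under 0.05, 24 higher and 35 lower after PO, and 16 were higher and 87 lower when libraries were scaled by their totals alone. That number fell to 9 when C2, C4 or P14 was left out and to 15 when C3 was, and it came to 135 when P8 and to 266 when P13 was left out.

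Cyp26b1, the enzyme that breaks down retinoic acid, showed the widest gap of the 3 genes. It had 166, 126 and 303 counts in C2, C3 and C4, and 58, 33 and 20 counts in P8, P13 and P14. Scaled for depth, these were 9.4, 7.72 and 16.3 CPM after control odor and 2.9, 1.82 and 1.2 CPM after PO. Every control odor library lay above every PO library, which also held in 13.2% of all features tested, and C4 stood well above the other control odor libraries. The lowest control odor library was 2.66 times the highest PO library. The mean was 11.2 ± 4.57 CPM after control odor and 1.97 ± 0.863 CPM after PO (SD, n = 3), so that the PO mean was 17.7% of the control odor mean. The log2 difference, PO over control odor, was -2.48 (standard error 0.39), and 16 of the 16685 features had a lower one. In bulk tissue, fewer cells that express a gene and less RNA per cell cannot be told apart.

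Counting error was smaller than the gap in Cyp26b1. The 20 counts of P14 have an exact 95% Poisson interval from 12.2 to 30.9 counts, and the 58 counts of P8 one from 44.0 to 75.0. The 126 counts of C3, the lowest control odor library, have one from 105.0 to 150.0. These intervals cover counting error only and not the spread between rats.

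Crabp2, which shuttles retinoic acid to its receptors, followed Cyp26b1 in the control odor libraries but not in the PO libraries. It had 166, 112 and 264 counts in C2, C3 and C4, and 82, 57 and 61 counts in P8, P13 and P14. These were 9.4, 6.86 and 14.2 CPM after control odor and 4.1, 3.15 and 3.65 CPM after PO. The groups did not overlap, as in the 13.2% of all features tested that lay lower after PO without overlap. C4 was again the highest library, and the 3 PO libraries lay close together. The highest control odor library was 2.07 times the lowest, and the highest PO library 1.31 times the lowest. The means were 10.2 ± 3.74 and 3.63 ± 0.479 CPM (SD, n = 3), with a log2 difference of -1.48 (standard error 0.26).

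Rbp4, the carrier of retinol, was the most abundant of the 3 and had the smallest difference. It had 353, 445 and 655 counts in C2, C3 and C4, and 353, 160 and 208 counts in P8, P13 and P14. Control odor library C2 and PO library P8 thus held the same raw count, and they were separated by the scaling to a common library size alone, at 19.99 and 17.66 CPM. The 95% Poisson intervals of these CPM values, 18.0 to 22.2 and 15.9 to 19.6, overlap. The other libraries stood at 27.3 and 35.3 CPM after control odor (C3 and C4) and at 8.83 and 12.4 CPM after PO (P13 and P14). The means were 27.5 ± 7.66 and 12.98 ± 4.44 CPM (SD, n = 3), and the log2 difference was -1.08 (standard error 0.33).

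**Figure D1:**
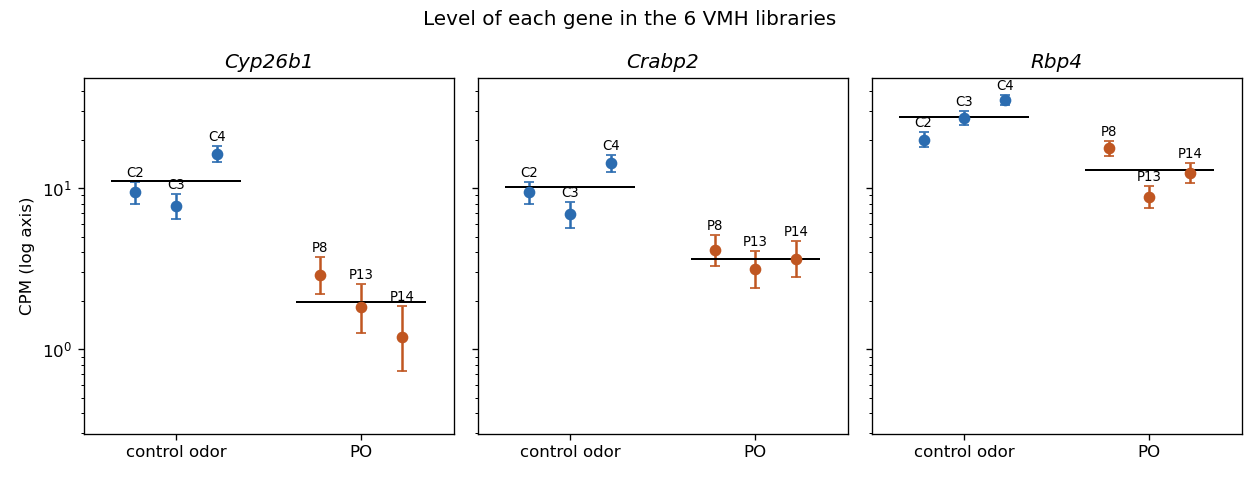
CPM (log axis) of Cyp26b1, Crabp2 and Rbp4 in each of the 6 libraries, with exact 95% Poisson intervals as bars and group means as black lines. The 3 control odor points lie above the 3 PO points in each panel, as in 13.2% of all features tested, and the genes were chosen for this contrast. Between the lowest control odor and the highest PO library, the gap is 2.66 times in Cyp26b1 and 1.13 times in Rbp4.

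The log2 difference was below -1 in all 3 genes and in 1.47% of the features tested. The genes were chosen for this contrast, so nothing is read from their place in it. Of the features tested, 88 had a lower log2 difference than Crabp2 and 201 a lower one than Rbp4. Pairing each PO library with each control odor library, the log2 difference ran from -1.41 to -3.77 in Cyp26b1, from -0.74 to -2.18 in Crabp2 and from -0.18 to -2.0 in Rbp4.

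**Figure D2:**
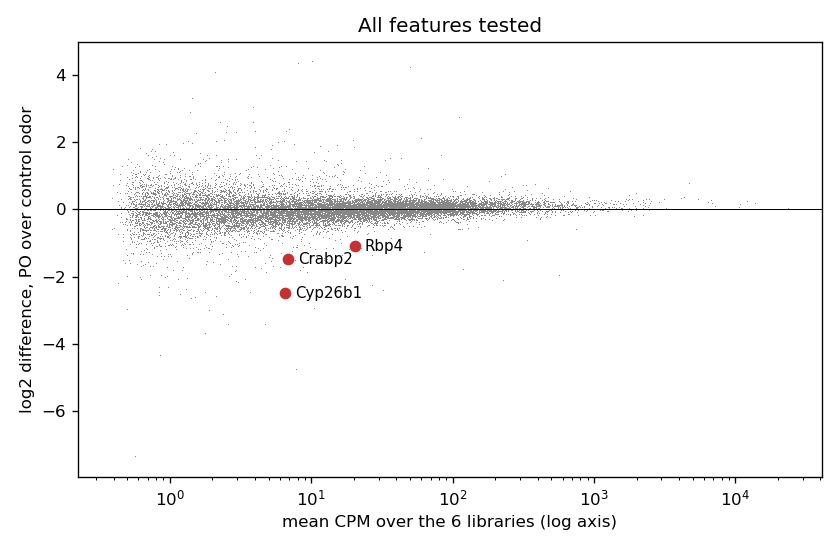
Log2 difference, PO over control odor, against mean CPM over the 6 libraries (log axis) for the 16685 features tested (grey), with Cyp26b1, Crabp2 and Rbp4 in red. The 3 genes lie at -2.48, -1.48 and -1.08, below the bulk of features of like abundance.

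Leaving out 1 library changed the size of the differences but not their direction. Cyp26b1 ranged from -2.87 without P8 to -2.1 without C4 on the log2 scale. Crabp2 ranged from -1.7 without C3 to -1.16 without C4. Rbp4 ranged from -1.36 without P8 to -0.86 without C4 or P13. Removing C4, the library with the highest level of each gene, brought each difference closer to 0.

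**Figure D3:**
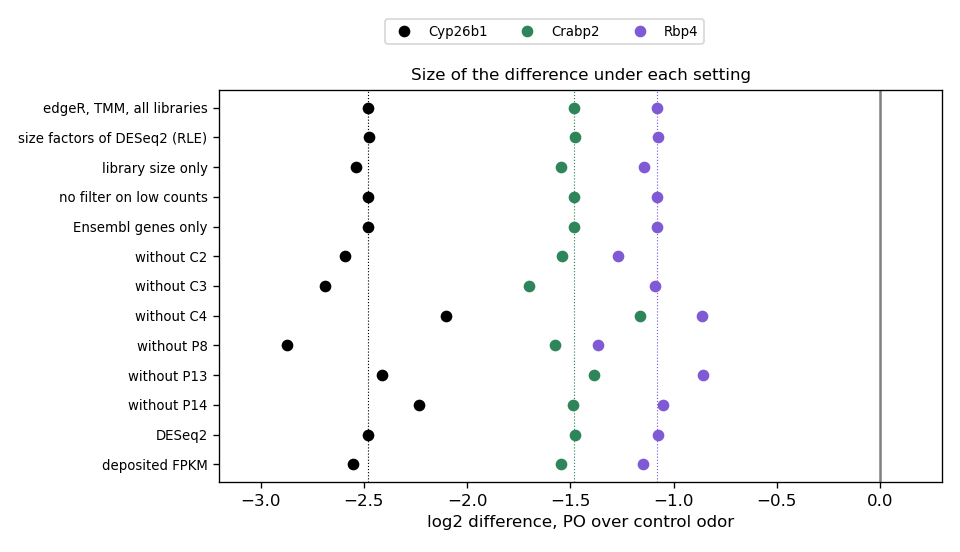
Log2 difference, PO over control odor, of each gene (colored points) with all libraries, under other scalings and tools, and without each library in turn. Dotted lines mark the values with all libraries, and all points lie below 0, between -2.87 and -0.86.

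Per unit of gene length, Rbp4 was the most abundant and Cyp26b1 the least abundant of the 3 in each of the 6 libraries. The authors' FPKM values correspond to lengths of 4550 bases for Cyp26b1, 799 for Crabp2 and 917 for Rbp4. After control odor, Rbp4 stood at 30.6 ± 8.26, Crabp2 at 12.97 ± 4.63 and Cyp26b1 at 2.5 ± 0.994 FPKM (SD, n = 3). After PO, they stood at 13.8 ± 4.76, 4.44 ± 0.578 and 0.425 ± 0.19 FPKM (SD, n = 3). The ranges of neighboring genes in this order did not overlap within either group. For instance, Rbp4 went down to 22.4 FPKM and Crabp2 up to 18.0 FPKM after control odor. Among all features, between 2752 and 4333 had a higher FPKM than Rbp4 in a control odor library and between 4774 and 7175 in a PO library. For Cyp26b1 these numbers were 10466 to 12991 and 15690 to 17389.

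The ratios between the mRNA levels of the 3 genes are given as a description of the same contrast. The ratio of Cyp26b1 to Crabp2 counts was 1.0, 1.13 and 1.15 in C2, C3 and C4, although each gene varied over 2-fold among these libraries. After PO it was 0.707, 0.579 and 0.328 in P8, P13 and P14, below every control odor library. On the FPKM scale the ratio of Cyp26b1 to Rbp4 was 0.0817 ± 0.0213 after control odor and 0.0313 ± 0.0112 after PO (SD, n = 3), and these groups did not overlap either. The ratio of Crabp2 to Rbp4 was 0.43 ± 0.129 and 0.337 ± 0.0711 FPKM per FPKM (SD, n = 3), and here the groups overlapped.

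With both groups pooled, all 3 genes varied more between rats of a group than most features of like abundance. The SD of log2(CPM + 0.1) within groups was 0.58 for Cyp26b1, against a median of 0.21 over 3965 features with a mean CPM within 2-fold of it. It was 0.39 for Crabp2 and 0.45 for Rbp4, against medians of 0.21 and 0.13. In Crabp2 the spread lay mainly in the control odor group, with a highest library 2.07 times the lowest, against 1.31 times after PO. Of the control odor libraries, C4 was the highest for all 3 genes, and of the PO libraries, P8 was the highest for all 3. Over all features tested, C4 was the highest control odor library in 36.1% and P8 the highest PO library in 30.8%.

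The named genes with the profiles most like those of the retinoid genes were of several kinds, among them solute carriers, extracellular proteins and receptors. Likeness was measured as the root mean square distance between log2(CPM + 0.1) profiles over the 6 libraries, each centered on its own mean. Of all features, 163 have a name here, all from lists of genes that the study called or listed in these libraries. The ranking of names is therefore not independent of the contrast. The median distances are not independent of it either, because the retinoid genes were chosen for their difference in it. For Cyp26b1, the nearest of all 16684 other features was Slc13a4, a sulfate transporter, at a distance of 0.18, against a median of 1.32 over all features. Slc13a4 stood at 29.8 ± 7.93 CPM after control odor and 5.45 ± 2.3 CPM after PO (SD, n = 3). The second was Slc22a6, an organic anion transporter (0.24), followed among the named genes by RT1-Ba, Igfbp2 and RT1-Bb at 0.27, 0.31 and 0.35. RT1-Ba and RT1-Bb encode chains of a rat major histocompatibility complex class II molecule, and Igfbp2 encodes a protein that binds insulin-like growth factors.

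For Crabp2, the nearest named gene was Slc6a13, a GABA transporter, at a distance of 0.2, against a median of 0.79 over all features. Colec12, a scavenger receptor, Tnnt2, a troponin, Ngfr, a neurotrophin receptor, and Slc6a20b, a solute carrier, followed at 0.21 to 0.25. For Rbp4, the nearest named gene was Synpo2, an actin-binding protein, at 0.16, against a median of 0.68. Synpo2 stood at 5.53 ± 0.654 and 2.49 ± 0.692 CPM (SD, n = 3). Slc6a13, Col5a1, a fibrillar collagen chain, Slc6a20b and Ngfr followed at 0.26 to 0.29. Slc6a13, Slc6a20b and Ngfr thus stood among the nearest 5 named genes of both Crabp2 and Rbp4. Crabp2 and Rbp4 were 0.36 apart, and Cyp26b1 was 0.61 from Crabp2 and 0.78 from Rbp4. By nearness to Cyp26b1, Crabp2 ranked 39 and Rbp4 ranked 90 among the 16684 other features. By nearness to Crabp2, Rbp4 ranked 47 and Cyp26b1 ranked 1059. By nearness to Rbp4, Crabp2 ranked 126 and Cyp26b1 ranked 13378, so most features lay nearer to Rbp4 than Cyp26b1 did.

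**Figure D4:**
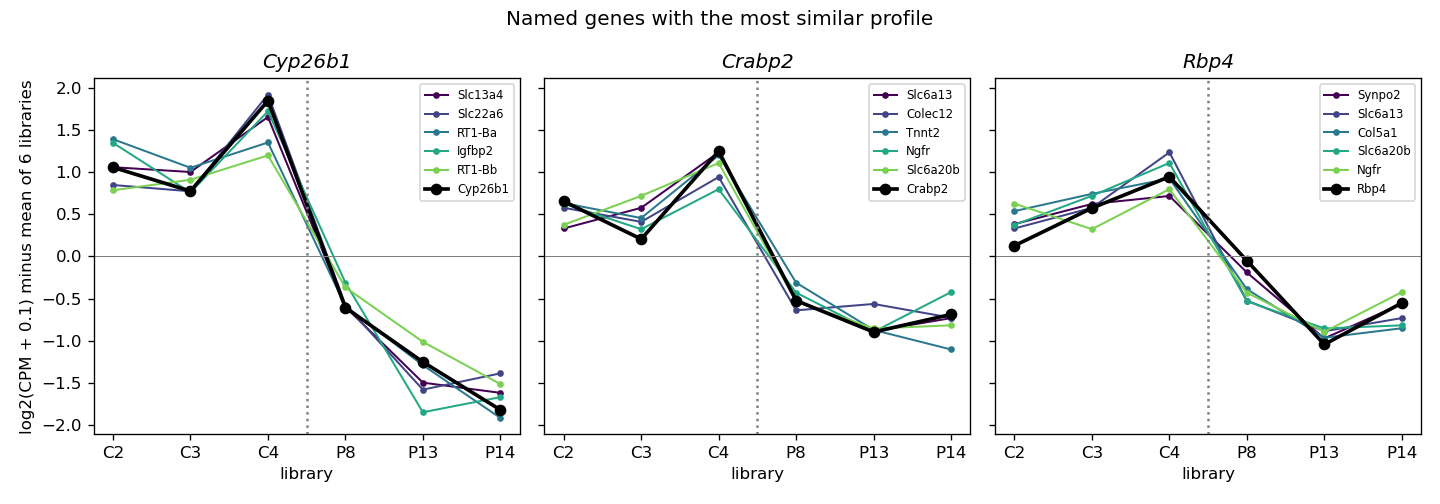
Profile over the 6 libraries, as log2(CPM + 0.1) minus the mean of the 6, of each retinoid gene (black) and of the 5 named genes nearest to it (colored lines), with the control odor libraries left of the dotted line. In the Cyp26b1 panel, Slc13a4 runs at a distance of 0.18 from it.

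Leptomeningeal fibroblasts build the inner meninges, and some of their markers could be read in these libraries. Of 20 markers listed, 8 have a name here: Col1a1, Col1a2, Igfbp2, Gjb2, Slc13a4, Slc22a6, Slc6a13 and Slc22a2. The other 12 were not read. The study called or listed all 8 in these libraries, which is why they have a name, so their direction was largely fixed by that choice. In all 8, every PO library lay below every control odor library, as in 13.2% of all features tested, and nothing is read from that count. Slc22a6 and Slc6a13 passed edgeR's test (adjusted p = 0.0481 each from edgeR), and the other 6 did not (0.0519 to 0.222). Of the 8, edgeR called 0 without C3 or without C4, 1 without C2, P13 or P14, and 5 without P8. Over all features, edgeR called 15 without C3, 9 without C4, 9 without C2, 266 without P13, 9 without P14 and 135 without P8. With all libraries, DESeq2 called 6 of the 8 and 865 features in all. The markers were named through the study's own calls, so nothing is read from these counts either. The summed level of the 8 markers was 178, 144 and 220 CPM in C2, C3 and C4 and 74.0, 42.7 and 34.3 CPM in P8, P13 and P14. C4 was thus the highest control odor library and P8 the highest PO library here too. None of the 8 was at 0 in a control odor library, and Slc22a2 was at 0 in P13 and P14. Of 6 markers of arachnoid barrier cells, the only one named was Cdh1, at 2.82 to 3.99 CPM after control odor and 0.0 to 0.851 CPM after PO. Of 10 markers of the choroid plexus epithelium, only Folr1 and Enpp2 were named. Folr1 stood at 3.77 to 5.15 CPM after control odor and 8.11 to 17.2 CPM after PO. Enpp2 stood at 55.5 to 78.7 CPM and 90.9 to 100.1 CPM. Like the markers above, Cdh1, Folr1 and Enpp2 have a name because the study called or listed them. Nothing is read from their direction. Of the markers listed for ependymal cells, tanycytes, endothelial cells, pericytes, microglia, oligodendrocytes, astrocytes, neurons and neighboring hypothalamic nuclei, 0 could be paired with an ID. The part of these cells in the levels of the retinoid genes was not tested.

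The 3 retinoid genes were also set against these 8 markers, which were chosen through the same contrast. The summed markers averaged 180.6 CPM after control odor and 50.35 CPM after PO. The control odor mean over the PO mean was 5.65 for Cyp26b1, 2.8 for Crabp2 and 2.12 for Rbp4. The ratios below therefore largely restate the sizes of these differences, and nothing further is read from them. Per 100 CPM of the summed markers, Cyp26b1 stood at 5.29, 5.36 and 7.43 CPM in C2, C3 and C4 and at 3.92, 4.26 and 3.48 CPM in P8, P13 and P14. It was lower than after control odor in every PO library. Rbp4 stood at 11.3, 18.9 and 16.1 CPM after control odor and at 23.9, 20.7 and 36.2 CPM after PO, higher in every PO library. Crabp2 stood at 4.76 to 6.47 and at 5.54 to 10.6 CPM, and its groups overlapped. Without Igfbp2 and Col1a1, the most abundant markers, Cyp26b1 had 9.9 to 15.4 CPM per 100 after control odor and 6.69 to 8.68 after PO, and Rbp4 had 25.9 to 34.96 and 35.3 to 69.6. The separation of Rbp4 was then small, at 34.96 in C3 against 35.32 in P13.

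**Figure D5:**
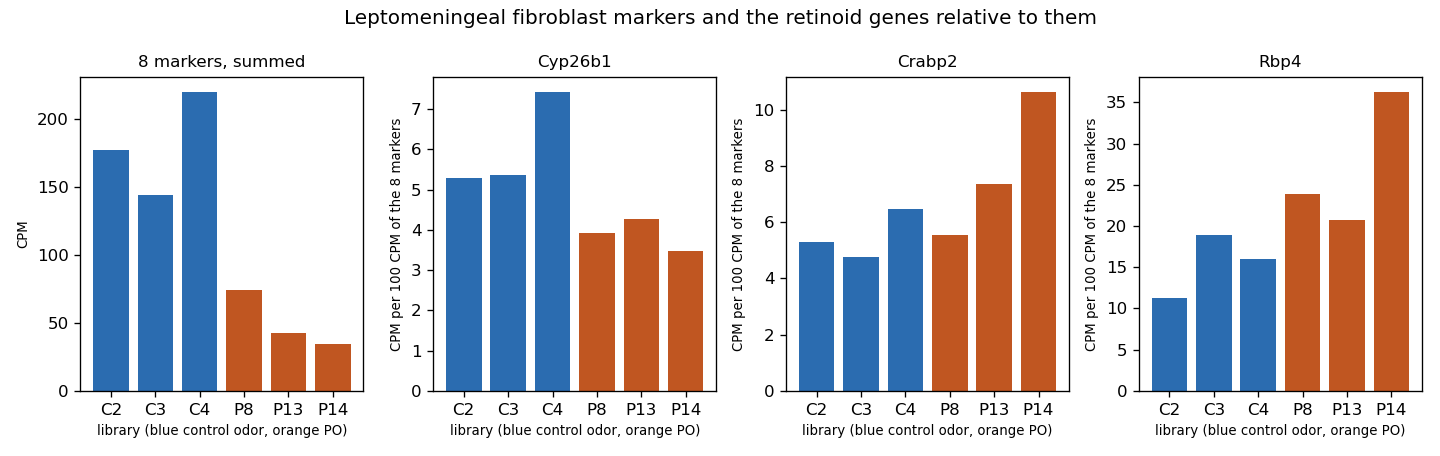
Summed CPM of 8 leptomeningeal fibroblast markers in each library (left) and CPM of Cyp26b1, Crabp2 and Rbp4 per 100 CPM of these markers (the other panels), with control odor in blue and PO in orange. The summed markers fall between 144 and 220 CPM after control odor and between 34.3 and 74.0 CPM after PO. Markers and retinoid genes were chosen through this same contrast, so the ratios are a description only.

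Marker by marker, the picture was mixed. Slc22a2 was left out here because it was at 0 in P13 and P14, so 7 markers remained. The ratio of Cyp26b1 to the marker was lower in every PO library for 3 markers (Col1a1, Gjb2 and Slc6a13) and overlapped between groups for 4. Against Slc13a4, its nearest neighbor, it lay between 0.315 and 0.421 after control odor and between 0.32 and 0.436 after PO. For Crabp2 and for Rbp4, the ratio was higher in every PO library for 3 markers (Igfbp2, Slc13a4 and Slc22a6) and overlapped for 4. These ratios, formed after adding 0.1 CPM, were chosen after the data had been seen. Markers and retinoid genes were chosen through the same contrast. The log2 differences of Igfbp2, Slc13a4 and Slc22a6 were -2.43, -2.44 and -2.475, and those of the remaining markers lay between -1.54 and -0.917. Ratios to other features were not formed, so nothing is read from these counts.

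The rest of the pathway could not be followed. Of 48 other genes for retinoid carriers, uptake, storage, synthesis, breakdown, receptors and retinoic acid response, 0 could be paired with an ID in the sources used here. In the deposited GO table, the term response to retinoic acid pairs Cyp26b1 with Osr1, Col1a1, Igfbp2 and Gjb2. Crabp2 and Rbp4 are not among the called genes deposited, so their absence from the term says nothing about their annotation. Osr1, a zinc finger transcription factor, stood at 4.74 ± 2.51 CPM after control odor and 0.42 ± 0.385 CPM after PO (SD, n = 3). Gjb2, a gap junction protein, stood at 11.0 ± 1.06 and 5.82 ± 1.17 CPM (SD, n = 3). Igfbp2 stood at 54.6 ± 17.5 and 10.1 ± 6.42 CPM, and Col1a1 at 38.8 ± 8.32 and 14.9 ± 7.23 CPM (SD, n = 3). In edgeR's test over all features, the adjusted p of Osr1, Col1a1, Igfbp2 and Gjb2 was 0.0787, 0.175, 0.133 and 0.0519. All 4 passed with DESeq2, which called 865 features and is the tool named in the study's methods. Without P8, the adjusted p of Osr1, Col1a1 and Gjb2 fell under 0.05 in edgeR, and that of Gjb2 did so without P13 as well. With all libraries, Gjb2 also passed edgeR's test when libraries were scaled by their totals alone and when no filter on low counts was used. Col1a1, Igfbp2 and Gjb2 are also among the leptomeningeal markers, and the table lists only genes that had been called in these libraries, so they are not independent evidence.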

How the data were processed

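Per the study's methods, the authors filtered the reads, aligned them to the Ensembl build Rnor_5.0 (version 79) with HISAT2 v2.1.0-beta and deposited raw counts per gene from HTSeq v0.6.1 in union mode. The strand setting of the counting is not stated in the methods. DESeq and CASAVA 1.8 are also named in the submitters' processing notes. The authors computed the deposited FPKM from the same counts. The deposited tables of called genes and GO terms hold p-values of the authors' own comparison, of which only gene names and IDs were used. The counts of the 6 libraries were fitted in R 4.3.3 by the robust quasi-likelihood method of edgeR 4.0.16 after TMM and filterByExpr, with Benjamini-Hochberg adjustment over 16685 features, and the fit was tested on simulated data, where it recovered the size of known changes and made more false calls than the nominal share. DESeq2 1.42.0, other scalings, no filter, Ensembl genes only and each library left out were alternatives. Each standard error is the size of the log2 difference over the square root of edgeR's quasi-likelihood F statistic. It is thus derived from that test and not estimated apart from it. Profiles used log2(CPM + 0.1), and intervals are at 95%. Named genes were Cyp26b1, Crabp2 and Rbp4, pathway genes with an ID, and the 5 named features nearest to each. Osr1 and the markers were named because a result turned on them. Names came from the study's list of 40 genes and from 142 named IDs of the table of called genes, 163 in all. The genes and lists were chosen with earlier results of these data known. Descriptive values used NumPy 2.4.6, SciPy 1.17.1 and pandas 2.3.3 under Python 3.11.15, with plots from Matplotlib 3.10.9.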

Additional observations from a re-analysis of the deposited data

How the results depend on the processing

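The log2 differences of Cyp26b1, Crabp2 and Rbp4 kept their sign and stayed within 1 SD of the replicates under all 12 alternatives each. With all libraries, they ran from -2.55 to -2.48, from -1.55 to -1.48 and from -1.15 to -1.07 under 6 other scalings, filters or tools, and with 1 library left out from -2.87 to -2.1, from -1.7 to -1.16 and from -1.36 to -0.86. With 3 libraries per group, leaving 1 out can hardly move a group mean by 1 SD, and the other settings refit the same counts. The limit of 1 SD could therefore hardly be failed, and nothing is read from staying within it. The number of features called by edgeR, 59, was 60 with DESeq2's size factors and 61 with Ensembl genes only. It moved to 103 with library size only, to 433 without a filter on low counts and to 865 with DESeq2, and lay between 9 and 266 with 1 library left out. The cause was not tested. The count of called leptomeningeal markers under these settings was added after seeing the data. The planned count of called pathway genes was not run, since 0 of 48 could be paired with an ID. No paired analysis was possible because the groups share no replicate number. Depth limits Cyp26b1 most, with 20 counts in P14. Sequences before the start are from another build than the counts.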

Other observations

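Aldh1a7, a rodent relative of the retinal dehydrogenases, lay in the opposite direction to the 3 retinoid genes. It stood at 0.736, 0.49 and 0.377 CPM in C2, C3 and C4 and at 1.7, 2.7 and 2.09 CPM in P8, P13 and P14. The means were 0.535 ± 0.184 and 2.17 ± 0.505 CPM (SD, n = 3), with between 7 and 49 counts per library. Its log2 difference was 2.0 (standard error 0.37) and it did not pass edgeR's test over all features (adjusted p = 0.0504 from edgeR). It passed under other settings of edgeR, with adjusted p from 0.0153 to 0.0488 under other scalings, without a filter and with Ensembl genes only. With 1 library left out, its adjusted p from edgeR ran from 0.0442 to 0.159, and DESeq2 gave none. It was singled out after its values were seen, among genes the authors had called in these libraries. Its sequence is close to that of Aldh1a1, so how reads were shared between these genes is uncertain, and Aldh1a1 could not be paired with an ID here.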
